A study of Mus musculus with 4 samples.

Results

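Near-identical back-splice junctions are pairs or trios of circular RNA junctions on the same chromosome and strand whose start and end positions each lie within 5 nt of each other. They were found by comparing every junction in the deposited table with its neighbours and joining close ones by single linkage, so that a junction belongs to a locus if it is close to any other member. Of 40909 junctions, 573 (1.40%) had such a neighbour. They formed 283 loci, 276 with 2 junctions and 7 with 3. The cells were primary mouse articular chondrocytes, which make and maintain the cartilage of joints. The treated group had 2 libraries of cells given recombinant human interleukin-1β (IL-1β), an inflammatory cytokine, at 10 ng/ml for 24 h after plating. The control group had 2 libraries of chondrocytes whose source label names no cytokine, although the treatment text of all 4 samples is the same. The cells of all 4 libraries were of low passage and had been thawed before use. The labels name no mouse strain. They also leave unsaid whether replicate libraries stem from different animals or dishes, so every spread between libraries may be technical.

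A circular RNA is made when the spliceosome joins a downstream donor site (the end of an exon) to an upstream acceptor site (the start of an exon), and the read that crosses this back-splice is what identifies the circle. An acceptor normally follows an AG and a donor normally precedes a GT, and short repeats of these letters at an exon boundary let the spliceosome choose between neighbouring sites. Tandem acceptors a few nucleotides apart are a known, common form of alternative splicing in linear RNA, and a shift by a whole number of codons keeps the reading frame.

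Sequence could be read at 2 differing acceptor sites, because they fell inside promoter windows of RefSeq genes (assembly GRCm38.p6, minus strand, 20 bases before the acceptor and 10 from it onward). They are shown because in each the AG repeats 4 nt further on, so that each member of the locus has an AG of its own. The AG before each acceptor is in capitals.
Ttc7b circRNA.5259, chr12:100495431-100495460: ttctgtctttttccttctAGtcagaattcc
Ttc7b circRNA.5258, chr12:100495427-100495456: gtctttttccttctagtcAGaattcctaca
Cdk5rap1 circRNA.21751, chr2:154372845-154372874: cacggctttatttttcaaAGccagggtcct
Cdk5rap1 circRNA.21750, chr2:154372841-154372870: gctttatttttcaaagccAGggtcctggga

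Ttc7b encodes a subunit that holds a phosphatidylinositol kinase at the plasma membrane. Its upstream acceptor (circRNA.5259) had 46 and 62 reads in IL-1β 1 and 2 and 153 and 97 in control 1 and 2, and its downstream acceptor (circRNA.5258) had 50 reads in control 1 and 0 in the other 3. Cdk5rap1 encodes an enzyme that modifies transfer RNA. Its upstream acceptor (circRNA.21751) had 10, 10, 11 and 43 reads in the same order, and its downstream acceptor (circRNA.21750) had 40 in control 2 and 0 elsewhere. In both loci the main junction was read in every library and the second in 1 library, a control. The same Ttc7b acceptors served a longer circle, with 6, 0, 10 and 11 reads on circRNA.5257 and 8 in control 2 alone on circRNA.5256. The downstream acceptor was thus read in control 1 for the shorter circle and in control 2 for the longer one. Over all junctions of the table, 170 acceptor ends lay inside such windows, of which 167 (98.2%) followed an AG and 12 (7.06%) had a further AG ending 4 nt downstream, on the strand of the circle. A further AG ending 3 nt downstream was present at 13 (7.65%). Of 36 donor ends inside windows, 35 (97.2%) preceded a GT. The 3 kinds of match describe the letters only.

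The 573 junctions held 288438 reads, 6.74% of all back-splice reads, with 56928 in IL-1β 1, 60893 in IL-1β 2, 78124 in control 1 and 92493 in control 2. The libraries as a whole held 895774, 980542, 1198010 and 1203855 reads in that order. A single locus in Nfix, which encodes a nuclear factor I transcription factor, held 134322 reads (46.6% of those of the near-identical junctions). The median locus held 79 reads and the lowest 4. Of the loci, 143 were read in all 4 libraries and 119 had at least 10 reads in each. In 277 loci both ends lay in exactly 1 host gene (212 hosts), and in all 222 loci whose host's strand was known the circle lay on that strand. There were 50 hosts with more than 1 locus. The most in a host was 4, in Ttll5, Clec2d and Cemip, whose product takes part in breaking down hyaluronan. A circle in these loci spanned a median of 11136 bp of genome, against 10570 bp over the whole table. Between 1 and 3 junctions a library were listed at a single read, against 349 to 774 at 2 reads, so a value of 0 may include junctions under a minimum. Of 13 chondrocyte marker genes, 4 hosted any circle (Hapln1, Col11a2, Sox5 and Sox6) and 9 did not, among them Acan, Col2a1 and Sox9. Col1a1, Col1a2, Col3a1 and Pdgfra of 7 fibroblast markers did, as did 0 of 5 macrophage and leukocyte markers and 1 of 4 endothelial ones. No marker hosted a near-identical locus, and a gene without a circle may still be transcribed.

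The offset between neighbours was far from even. No pair lay 1 nt apart, 5 lay 2 nt apart, 85 lay 3 nt apart, 141 lay 4 nt apart and 63 lay 5 nt apart, where the offset is the larger of the differences at the start and at the end. Just outside the limit, 51 pairs lay 6 nt apart, and each distance from 7 to 20 nt had between 14 and 26 pairs. The acceptor alone differed in 79 of the pairs 3 nt apart, in 82 of those 4 nt apart and in 35 of those 5 nt apart. The donor alone differed in 4, 36 and 17 pairs at the same distances, and both ends differed in 2, 23 and 11. The 3-nt pairs were thus nearly all acceptor pairs, while at 4 and 5 nt the donor and joint shifts were well represented.

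**Figure D1:**
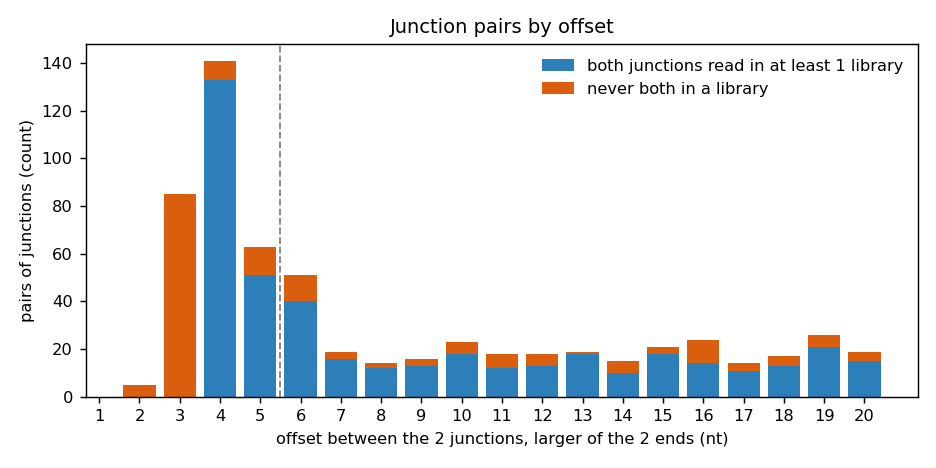
Number of junction pairs by offset in nt, with pairs whose 2 junctions were read together in at least 1 library set apart from pairs never read together. The dashed line marks the limit of 5 nt. The 90 pairs at 2 and 3 nt hold no pair of the first kind, and 133 of the 141 pairs at 4 nt do.

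The pairs fell into sharply different classes by whether a library could hold both junctions. At 2 to 3 nt, 0 of 90 pairs had both junctions read in the same library (exact Clopper-Pearson 95% interval up to 4.02%), which is 0 of 265 combinations of a pair and a library with any read and allows a share of up to 1.13%. Of the pairs 4 to 5 nt apart, 184 of 204 did (90.2%, interval 85.3% to 93.9%), in 247 of 656 combinations (37.7%). The step fell between 3 and 4 nt, since the 4-nt pairs stood at 133 of 141 (94.3%), the 5-nt pairs at 51 of 63 (81.0%), the 6-nt pairs just outside the limit at 40 of 51 (78.4%), and all pairs 6 to 20 nt apart at 244 of 314 (77.7%). Pairs that share an end or a host are not independent, and these intervals cover counting error only. The circRNA caller is not named, and whether it assigns like reads to 1 of several close positions in each library was not tested. Every split and every 0 given here is therefore one of assigned reads.

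The 2- to 3-nt loci were less deeply read, with a median of 46 reads a locus against 115 at 4 to 5 nt. The contrast was measured again with a minimum depth, above which the classes were not matched. Where a pair had at least 10 reads in a library, both junctions were read in 0 of 190 combinations at 2 to 3 nt, in 241 of 592 (40.7%) at 4 to 5 nt and in 363 of 884 (41.1%) at 6 to 20 nt. With at least 50 reads the counts were 0 of 30, 151 of 314 (48.1%) and 248 of 512 (48.4%). The absence at 2 to 3 nt was therefore also seen among the deeply read pairs.

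The largest locus at 3 nt lies in Zfp292, which encodes a zinc-finger transcription factor (chromosome 4, 34839332 to 34848035, minus strand). Its circRNA.27296 had 572 reads in control 1 and 736 in control 2, and 0 in either IL-1β library. The neighbour whose acceptor lies 3 nt downstream, circRNA.27295, had 518 in IL-1β 1 and 445 in IL-1β 2, and 0 in either control. All reads of each group in this locus were therefore assigned to a different junction. The share of circRNA.27296 was 0% in both IL-1β libraries (exact intervals up to 0.71% and 0.83%). It was 100% in both controls (from 99.4% and 99.5%). A further circle on the same acceptors had 4 reads in IL-1β 1 at the downstream acceptor (circRNA.27290). In IL-1β 2 it had 4 at the upstream one (circRNA.27291), so the acceptors did not divide wholly by group.

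Zfp292 was an exception among such loci, because most divided within a group. Of the 119 loci with at least 10 reads in every library, 19 had at least 99% of each library's reads on 1 junction but not the same junction in all 4. All 19 were at 2 to 3 nt, where they were 19 of 19 loci. That count follows from the 0 of 90 pairs above, because such a locus read in every library must change junction between libraries. In 2 of them the junction followed the group (Zfp292 and Sec24a), and in the other 17 the 2 libraries of at least 1 group sat on different junctions. The IL-1β libraries differed from each other in 5 loci and the controls in 13. By contrast, 90 of 100 loci at 4 to 5 nt had the same leading junction in all 4 libraries.

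Both groups divided in Aak1, a kinase of clathrin-coated vesicles (chromosome 6, 86963993 to 86967373). Its circRNA.33378 had 0, 134, 148 and 0 reads (in the order IL-1β 1, IL-1β 2, control 1, control 2, kept from here on), and circRNA.33381, with the acceptor 3 nt downstream, had 93, 0, 0 and 128. IL-1β 1 thus matched control 2, and IL-1β 2 matched control 1. In Bmpr1a, a receptor for bone morphogenetic proteins (chromosome 14, 34441099 to 34460612), circRNA.8873 had 0, 52, 166 and 120 reads and circRNA.8874 had 91, 0, 0 and 0. Only IL-1β 1 was on the second junction there, which lies 3 nt upstream.

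Other loci of the same kind had 1 library apart from the rest. In Ppfia1, which encodes the scaffold protein liprin-α1, circRNA.34748 had 49, 72, 0 and 109 reads and circRNA.34749 had 92 in control 1 alone. In Ahcyl2, a relative of the enzyme adenosylhomocysteinase, circRNA.32261 had 57, 52, 118 and 0 reads and circRNA.32256 had 42 in control 2 alone. Nav2, a neuron navigator gene, had 0, 38, 97 and 32 reads on circRNA.35230 and 35 in IL-1β 1 alone on circRNA.35233. These 3 loci each set a different library apart. Kif26b, a kinesin gene, had 38, 68, 16 and 0 reads on circRNA.18711 and 48 in control 2 on circRNA.18712. Here control 2 stood apart from control 1 and from the IL-1β libraries.

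The smaller and rarer offsets showed the same exclusivity. The largest locus 2 nt apart at the acceptor, in Fam120c, had 0, 0, 73 and 5 reads on circRNA.40941 and 25 in IL-1β 2 on circRNA.40942. The largest donor locus 3 nt apart, in Mau2, whose product helps load cohesin onto chromatin, had 11, 0, 17 and 31 reads on circRNA.37405 and 6 in IL-1β 2 on circRNA.37404. In Clec2d, a C-type lectin gene and a locus in which both ends differed, control 1 had 30 reads of circRNA.31714 and control 2 had 25 of circRNA.31715. No library held both junctions in any of these, although the reads were few.

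**Figure D2:**
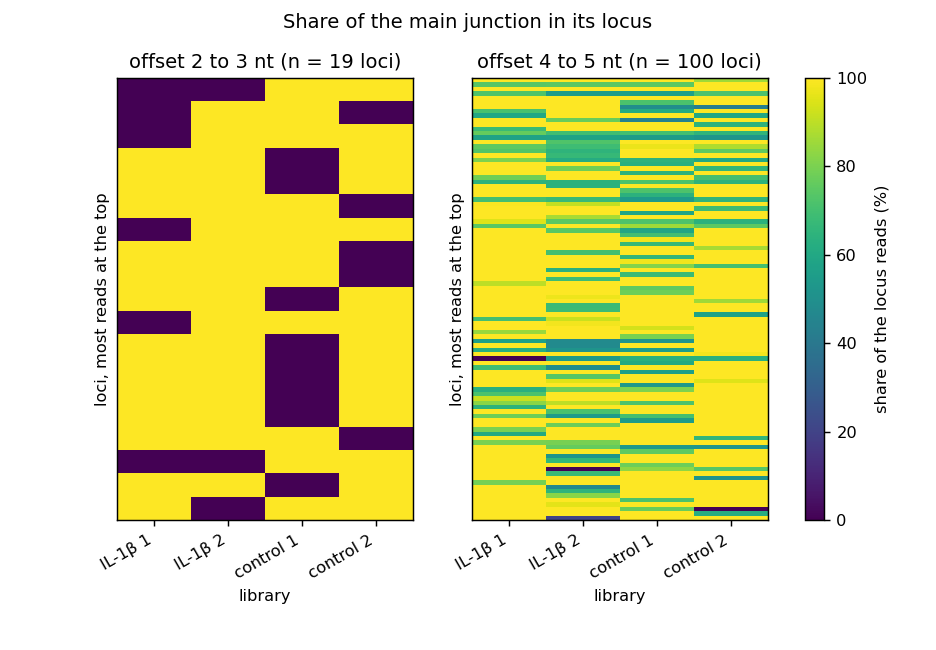
Share of each locus's reads on its main junction (the junction with the most reads over the 4 libraries), by library, for the loci with at least 10 reads in every library, in 1 row a locus. All 19 loci at 2 to 3 nt hold only values of 0% or 100%, and the 100 loci at 4 to 5 nt hold values in between.

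The exclusivity at 2 to 3 nt held for a junction pair, not for the acceptor or donor in a library. Different circles can share an end, so each pair of competing ends was looked for in all circles of the table. Of 75 sites with ends 2 to 3 nt apart, 51 served further circles, and 38 had both ends read in the same library, through circles that differed at their other end. None of the 38 did so within a locus, which follows from the 0 of 90 pairs above. In Sec24a, which encodes a cargo-binding protein of the COPII vesicle coat, the same acceptors 51729578 and 51729575 on chromosome 11 served 2 loci. Circle circRNA.3555 had 28, 13, 0 and 22 reads at the first acceptor, and circRNA.3554, its partner at the other, had 40 in control 1 alone. For the circle to a second donor, circRNA.3553 had 0, 0, 19 and 36 reads at the first acceptor and circRNA.3552 had 20, 10, 0 and 0 at the other. In both IL-1β libraries and in control 1 the 2 circles were thus read at different acceptors.

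Fam193a gave the same picture. Acceptors 34419998 and 34420001 on chromosome 5 served circRNA.30357, with 64, 66, 0 and 95 reads, and its neighbour circRNA.30359, with 64 in control 1. They also served a shorter circle, with 0, 22, 19 and 43 reads on circRNA.30352 and 32 in IL-1β 1 on circRNA.30358. Control 1 used the second acceptor for the long circle and IL-1β 1 used it for the short one. Among all sites with 1 differing end, 34 of 206 occurred in more than 1 locus. At 30 of the 34 the second junction was read in different libraries from locus to locus. It is ranked by reads within each locus, so it can be upstream in 1 locus and downstream in another, as in Cnot2. Some of these loci held few reads or had libraries without a read. The 30 is therefore not a count of sites with the same end in different libraries, although some of them, such as Fam193a, did show that.

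Sites 4 to 5 nt apart showed such differences between circles as well. Dennd1a, which activates the small GTPase Rab35, has acceptors 38136975 and 38136971 on chromosome 2. The main junction circRNA.23158 had 76, 108, 236 and 105 reads and its neighbour circRNA.23157 had 16 in control 2. With another donor, circRNA.23155 had 91, 95, 150 and 110 reads and circRNA.23154 had 55 in IL-1β 2. With a further donor, circRNA.23147 had 0, 14, 18 and 12 reads and circRNA.23146 had 11 in control 1. The same downstream acceptor thus appeared in a different library for each of 3 circles.

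At 4 to 5 nt the second junction was mostly an addition to the main one. Of 188 loci with 2 junctions, 172 had both in at least 1 library. The second junction was read in 1 library in 150 loci, in 2 libraries in 20, in 3 in 10 and in all 4 in 8. In the 225 combinations of a locus and a library with at least 10 reads and both junctions, the second held a median of 32.4% of the locus reads (quartiles 25% and 43.6%, range 0.0713% to 80.0%). In 167 of them (74.2%) it held between 20% and 50%. By offset the median was 35.3% at 4 nt and 25.2% at 5 nt. Where it was read at all, the second junction thus mostly held a sizeable share.

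**Figure D3:**
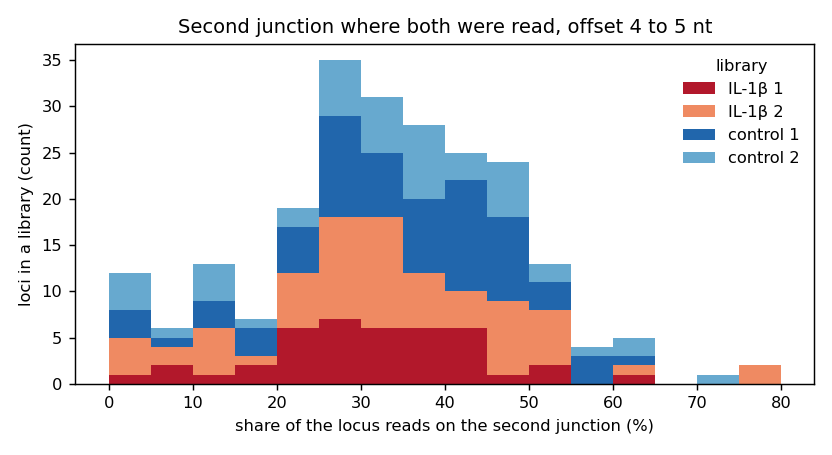
Share of a locus's reads held by the second junction in each library where both junctions were read and the locus had at least 10 reads, as counts of loci in bins of 5 points, with the 4 libraries stacked by colour. Most of the 225 values lie between 20% and 50%, with a median of 35.3% at 4 nt and 25.2% at 5 nt.

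Zfp148, a zinc-finger transcription factor gene (chromosome 16, 33421321 to 33434974), held the most reads among loci where both junctions reached 10% of reads. Its main junction circRNA.11931 had 4584, 4554, 7074 and 6092 reads. The second, circRNA.11936, with the acceptor 5 nt downstream, had 1615, 1553, 2400 and 0. The share of the main junction was 73.9%, 74.6% and 74.7% in the first 3 libraries and 100% in control 2 (exact interval from 99.94%), whose 6092 reads of the locus were close to the 6199 and 6107 of the IL-1β libraries. The 3 libraries that held both junctions thus divided them alike, and control 2 held only the main one.

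Ttc28, which encodes a large tetratricopeptide repeat protein (chromosome 5, 111182924 to 111183431), showed the same on-or-off pattern by group. Its circRNA.28570 had 1292, 1088, 819 and 1124 reads, and circRNA.28572, with the acceptor 4 nt downstream, had 0, 0, 848 and 1502. The main junction held 100% in IL-1β 1 and in IL-1β 2, 49.1% in control 1 and 42.8% in control 2. Rrp15, a gene of ribosomal RNA processing, had 1109, 1211, 1418 and 1550 reads on circRNA.18932 and 448, 0, 880 and 0 on circRNA.18931. Here the second junction was present in 1 library of each group.

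Several other deeply read loci had their second junction in 1 library or in a pair that crossed the groups. Ltbp1, which encodes a protein that binds latent TGF-β in the matrix, had 810, 731, 1061 and 1058 reads on circRNA.14316. Its neighbour circRNA.14314, shifted 4 nt upstream at both ends, had 540, 0, 0 and 703. The second junction was in IL-1β 1 and control 2. Lrp6, a Wnt coreceptor, had 795, 553, 952 and 680 reads on circRNA.31759 and 374 in IL-1β 1 alone on circRNA.31758. Eprs, a transfer RNA synthetase gene, had 595, 626, 1026 and 718 reads on circRNA.18919 and 395 in control 2 alone on circRNA.18918, whose donor lies 5 nt upstream. Neither the acceptor locus nor the donor locus divided by group. In Fbxo42, an F-box gene, circRNA.26783 had 783, 826, 984 and 0 reads and circRNA.26781, 5 nt upstream at both ends, had 571 in IL-1β 2 alone. Control 2 was at 0 on both.

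The most abundant locus, in Nfix (chromosome 8, 84771784 to 84772315, minus strand), had 25100, 27080, 30219 and 44465 reads of circRNA.37871. Its neighbour circRNA.37869, with the donor 4 nt downstream, had 7458 reads in control 2 and 0 in the other 3. The main share in control 2 was 85.6% (exact interval 85.3% to 85.9%). In each of the other libraries the exact interval of the main share began at 99.99%. Stx6, a SNARE of the trans-Golgi network, had 1934, 2296, 3088 and 2802 reads of circRNA.18221 and only 2 of circRNA.18222, in control 2, so presence did not always mean a large share.

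In 8 loci, picked out after their values were seen, both the main and the second junction were read in every library. Their second share was 36.0% ± 9.47 in Sh3kbp1 (SD, n = 4 libraries), 29.8% ± 4.67 in Rab3ip, 44.3% ± 2.77 in Mbtd1, 17.8% ± 12.7 in Snx5, 32.7% ± 8.97 in Zxdc, 33.6% ± 3.59 in Arl13b, 35.6% ± 6.90 in Becn1 and 23.5% ± 13.4 in Cramp1l. Sh3kbp1 encodes an adaptor of receptor endocytosis, and its circRNA.41094 had 745, 867, 1970 and 1155 reads beside 281, 703, 1526 and 456 of circRNA.41096, 4 nt downstream. The second share was 27.4% and 44.8% with IL-1β and 43.6% and 28.3% in control, so the groups overlapped fully. Mbtd1, a gene of a histone-binding protein, had 318, 239, 268 and 383 reads of circRNA.4960 and 234, 172, 219 and 352 of circRNA.4967. Its second share was 42.4% and 41.8% with IL-1β and 45.0% and 47.9% in control. Rab3ip, an activator of Rab8, had 385, 454, 452 and 476 reads of circRNA.206 and 118, 200, 198 and 253 of circRNA.205. Mbtd1 varied least between libraries of the 8.

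The widest gap between groups among these 8 was in Snx5, a sorting nexin gene (chromosome 2, 144254726 to 144259178, minus strand). Its main junction circRNA.21536 had 445, 326, 348 and 402 reads, and circRNA.21535, with the donor 5 nt downstream, had 148, 148, 11 and 55. The second share was 25% and 31.2% with IL-1β against 3.06% and 12% in control, a difference of 20.5 points. The exact two-sided permutation test over the 4 libraries gave 0.333, the smallest p that 2 against 2 allows. In edgeR's fit over all junctions circRNA.21535 had a log2 change of 2.52 ± 0.71 (SE) and an adjusted p of 0.886. The groups also did not overlap in Mbtd1, Becn1 and Cramp1l, which makes 4 of the 8 loci. The share was 15.1% of the 119 loci with at least 10 reads in every library, but the comparison is unlike. Many of the 119 had a main share of 100% in libraries of both groups, which counts as overlap. Such ties cannot occur in the 8, so no excess can be read from them.

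The second junction lay mostly downstream. Where the acceptor alone differed, the less-read junction was the downstream one in 70 of 80 loci at 4 nt and in 28 of 31 at 5 nt, but in 52 of 79 at 3 nt. Where the donor alone differed, it was downstream in 21 of 32 loci at 4 nt and in 10 of 15 at 5 nt. Where both ends shifted by the same amount, which leaves the length of the circle unchanged, it was downstream in 16 of 19 loci at 4 nt and 7 of 8 at 5 nt. The main acceptor was also the more widely used. At 4 to 5 nt it served another circle in 86 of 111 acceptor loci, against 42 for the second acceptor, and at 2 to 3 nt in 52 of 82 against 34. The length of the circle differed by a multiple of 3 nt or not at all in 110 of the 276 loci with 2 junctions.

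Among the 7 loci of 3 junctions, the 5 with the most reads had a main junction that was read in every library. Gbe1, the glycogen branching enzyme gene, had 961, 848, 822 and 693 reads of circRNA.12335, while circRNA.12338 had 1034 in control 1 alone and circRNA.12337 had 0, 250, 19 and 0. Control 1 held all 3 junctions. Zxdc, a zinc-finger gene, had 145, 206, 372 and 285 reads of circRNA.33511 and 35, 123, 203 and 183 of circRNA.33510, with 4 reads of its last member in IL-1β 2. Cdk12, a kinase of RNA polymerase II, had 321, 453, 338 and 150 reads of circRNA.5175 and 174 and 23 of its neighbours, both in control 1 alone. Snd1, a nuclease-related protein, had 189, 177, 128 and 247 reads of circRNA.32149, with 18 of a neighbour in IL-1β 2 and 1 of the other in IL-1β 1. Gnaq, a G protein subunit, had 24, 35, 44 and 28 reads of circRNA.16128, with 9 of a neighbour in IL-1β 2 and 6 of the other in IL-1β 1. Apart from the second junction of Zxdc, which was read in all 4 libraries, each neighbour in these 5 loci was at 0 in at least 2.

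**Figure D4:**
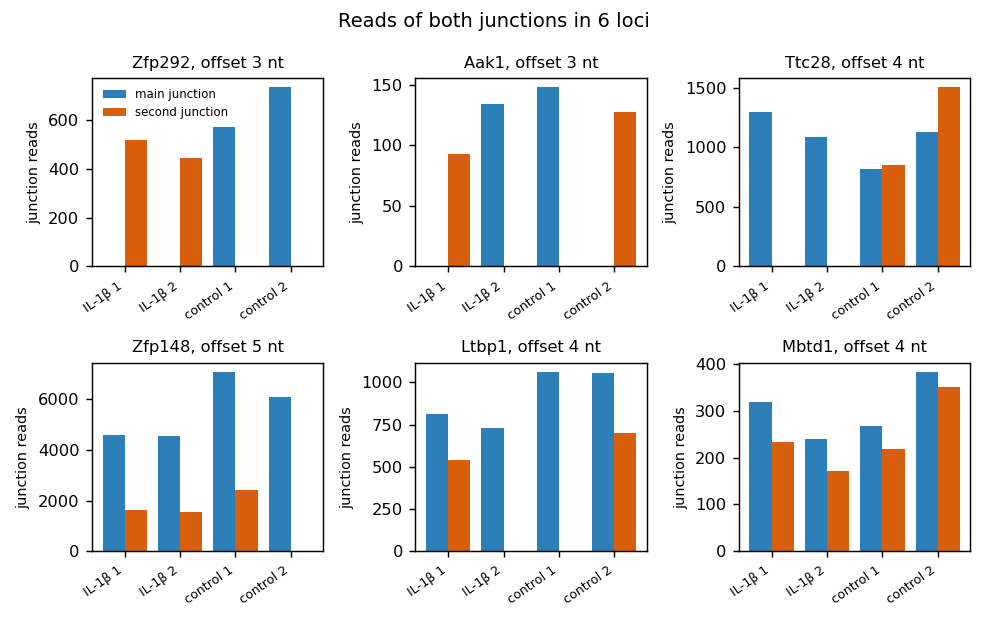
Reads per library of the main and second junction in named loci, as bars from 0 on a linear axis of junction reads, for 6 loci. Zfp292 changes junction with the group, Aak1 changes between libraries of each group, the second junction is at 0 in some libraries of Ttc28, Zfp148 and Ltbp1, and Mbtd1 holds both in every library.

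The question of treatment was first put to the split. The 119 loci with at least 10 reads in every library were used. The share of the main junction differed between the 2 libraries of a group by 20.4 points on average (16.7 for IL-1β and 24.2 for the controls). Between libraries of different groups it differed by 22.5 points (4 pairs, 18.0 to 25.5). The values within and across groups thus overlapped. The SD over all 6 pairs of libraries was 3.70 points. It includes the pairs across groups, and the pairs share libraries, so it is not a measure of the spread between replicates. At 2 to 3 nt the values were 47.4 points within groups and 55.3 across, with overlapping ranges (26.3 to 68.4 and 42.1 to 73.7). At 4 to 5 nt they were 15.3 and 16.2, and for pairs 6 to 20 nt apart 7.88 and 7.88. The groups' shares did not overlap in 18 of the 119 loci (15.1%), 7 with a higher and 11 with a lower main share with IL-1β, against 14.6% of the pairs 6 to 20 nt apart.

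Counting only which junction led gave a like result, here over loci with at least 1 read in both libraries of a pair. At 2 to 3 nt the leading junction differed between the IL-1β libraries in 26 of 47 loci (55.3%) and between the controls in 29 of 49 (59.2%), and across groups in 56.1% to 67.4%. At 4 to 5 nt it differed in 9.09% and 10.1% within groups and in 11.5% to 13.5% across. With at least 10 reads in both libraries, the values at 2 to 3 nt were 42.3% and 57.1% within groups and 46.2% to 64.5% across. Libraries of the same group therefore disagreed on the junction nearly as often as libraries of different groups.

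**Figure D5:**
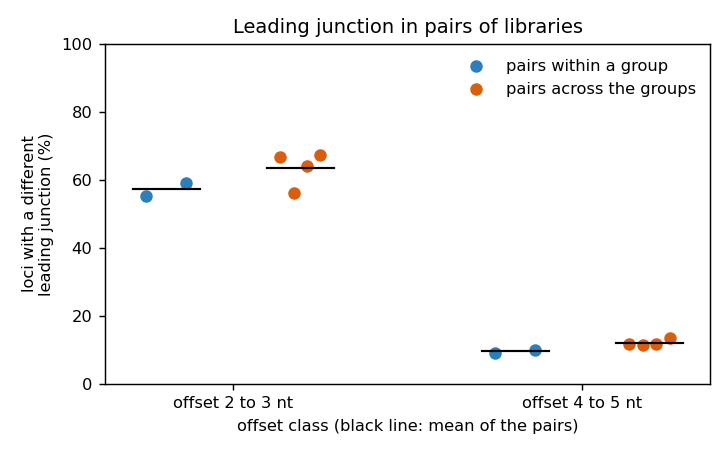
Percent of loci whose leading junction differed, for each of the 6 pairs of libraries, by offset class and by whether the pair lies within a group or across groups, with the mean of the pairs as a black line. At 2 to 3 nt the 2 pairs within a group stand at 55.3% and 59.2% and the 4 pairs across at 56.1% to 67.4%. Loci had at least 1 read in both libraries of the pair.

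The spread of the 2- to 3-nt loci between libraries differed between single junctions and their sum. Over the 4 libraries, the main junction of the 19 such loci with at least 10 reads in each had a median coefficient of variation of 76.8%, and the sum of both junctions one of 34.7%. Each of these main junctions was at 0 in at least 1 library, so its spread could not be small. The 5314 junctions outside any locus had 33.5%, so the summed loci varied about as much as an ordinary circle. For loci 4 to 5 nt apart the main junction had 33.8% and the sum 37.8% over 95 loci, and the sum varied less in 25 of them.

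The effect of IL-1β on each junction was tested over the whole table with edgeR's quasi-likelihood test. Of 15333 junctions with at least 20 reads, 3 passed an adjusted p of 0.05 (0.0196%, with 0.00652% higher and 0.013% lower), and all 3 were near-identical junctions, of which 336 were tested. They were circRNA.27295 of Zfp292, higher with IL-1β (adjusted p 0.0263), and circRNA.27296 of Zfp292 and circRNA.28572 of Ttc28, lower (0.0263 and 0.0282), whose reads are given above. Leaving out IL-1β 1, IL-1β 2 or control 2 left 0 calls among the near-identical junctions. Without control 1 there were 3, but none of these 3 junctions, whose adjusted p values in edgeR were then 0.109, 0.302 and 0.129. With 1 library left out none of the 3 calls held, and a fit that keeps junctions of at least 50 reads left 0. The unadjusted p was under 0.05 for 32 of the 336 (9.52%), 15 higher and 17 lower, against 3.44% of all junctions (1.83% higher and 1.62% lower). Of the 32, 24 had 0 reads in both libraries of a group, 15 were read in 1 library only and 8 were read in all 4. The median log2 change was -0.17 for the near-identical junctions and -0.05 for all.

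Summing the junctions of a locus removed the calls. The sum over Zfp292 had 518, 445, 572 and 736 reads, a log2 change of -0.09 ± 0.25 (SE), and that over Ttc28 had a change of -0.50 ± 0.27. Of 250 summed loci tested, 0 passed an adjusted p of 0.05 in edgeR (0 of 15247 summed loci and other junctions, 0.0%), and the smallest adjusted p was 0.894. Without adjustment, 18 sums had p under 0.05 (7.2%), 9 in each direction, against 3.52% overall (1.84% higher and 1.68% lower). DESeq2 called 15 of the 336 junctions (106 in all) and 8 of the 250 sums (95 in all). Of 28 loci with a junction at an unadjusted p under 0.05, 9 were also under it after summing.

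The summed loci with the lowest p had differences that did not pass edgeR's adjusted threshold. Mob3b, a gene of the MOB family of kinase coactivators, had sums of 111 and 130 reads with IL-1β against 47 and 48, 127 ± 7.95 against 39.8 ± 0.61 CPM (junction reads put on a per-library scale with TMM factors, mean ± SD, n = 2 libraries each) and a log2 change of 1.68 ± 0.38. Osbpl3, a lipid-binding protein gene, had 74 and 85 against 14 and 30, a change of 2.20. Pdgfc, a platelet-derived growth factor gene, had 71 and 119 against 37 and 35, a change of 1.73. All 3 were higher with IL-1β and were picked by their low p, so groups that do not overlap in reads follow from the choice. On the lower side, Irf2, an interferon regulatory transcription factor gene, had 17 and 28 against 99 and 109, a change of -1.87. Insig2, whose product holds back the processing of SREBP, had 0 and 0 against 30 and 67. A locus on chromosome 17 (39844230 to 39845359), with no host among the RefSeq genes used here, had sums of 0 and 0 against 72 and 36. Of these, control 1 had 70 on circRNA.13378 and control 2 had all 36 on circRNA.13377. What the sequence there encodes was not looked up. All 6 had an adjusted p of 0.894 in edgeR. DESeq2 called all 6, with adjusted p values of 0.00743 for Mob3b, 0.0269 for Osbpl3, 0.0444 for Pdgfc, 0.0393 for Irf2, 0.00843 for Insig2 and 0.00391 for the locus without a host.

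Genes of splice-site recognition and of the IL-1β response were looked at for their own circles. Of 70 genes for splice-site recognition and exon choice, such as U2af1, Srsf1 and Ptbp1, 50 hosted a circle. Hnrnpr, a relative of listed genes such as Hnrnpa1 but not in the list, hosted 3 near-identical loci (134 reads). The 70 listed genes hosted none. Of their 125 tested junctions, edgeR placed 3 higher and 2 lower with an unadjusted p below 0.05 (1.83% and 1.62% of all junctions), 0 passed the adjusted threshold, and the median log2 change was 0.13, against -0.05 for all. Of 60 genes of NF-κB and IL-1 signalling, 41 hosted a circle and 1 a near-identical locus. Of their 57 tested junctions, 4 were higher and 0 lower at that level, against the same shares of all junctions, 0 passed after adjustment, and the median change was 0.23. The locus lies in Tnip1, which encodes an inhibitor of NF-κB signalling that binds A20. Its circRNA.3681 had 0, 0, 9 and 2 reads and circRNA.3680, with the acceptor 5 nt downstream, had 9, 0, 0 and 0. With 20 reads in all, split over 2 junctions, neither was tested.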

How the data were processed

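Total RNA was depleted of ribosomal RNA and digested with RNase R, which removes linear RNA, before stranded library preparation, per the labels' protocols. Bowtie2 and mm10 are named in the submitters' processing notes. Which caller placed the junctions, and whether it chooses between equally good placements library by library, is not given in the sources used here. Per the file headers, the deposited values are whole-number counts of back-splice junction reads and SRPBM, a signal the authors scaled by depth. The ratio of counts to SRPBM was constant within a library, at 11.9 and 13.4 with IL-1β and 11.8 and 16.1 in control. Counts of the single-library files equalled those of the series table.

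Near-identical junctions and the gene lists were chosen with earlier results of these data known. On the plus strand the start is the acceptor and the end the donor, and on the minus strand the reverse. The main junction has the most reads over the 4 libraries, and a combination of pair and library is read when either junction has a read. Hosts are RefSeq genes of GRCm38.p6 that hold both ends, and exon or intron is not stated because the table used has no exons. RefSeq promoter windows gave the sequences. Counts were tested with edgeR 4.0.16 in R 4.3.3 (TMM, at least 20 reads, Benjamini-Hochberg over the whole table, threshold 0.05), checked on simulated counts, and DESeq2 1.42.0 was an alternative. Intervals are exact Clopper-Pearson (95%), and an upper limit for a count of 0 is 3 counts, and neither covers more than counting error. The SE beside an edgeR log2 change was worked back from the test, as the absolute change over the square root of its F statistic. Other values came from scipy 1.17.1 in Python 3.11.15. Loci were named by reads, by kind and size of offset, by a split between libraries and by the lowest p. The Ttc7b, Cdk5rap1, Dennd1a, Snx5, Arl13b, Becn1, Cramp1l, Cemip, Ttll5, Hnrnpr and Tnip1 loci were added after their values were seen. So were the shorter Sec24a circle and the shorter Fam193a circle. A few loci chosen in these ways are not reported here. Alternatives were a replicate block, DESeq2, other scaling, other read minimums, other distances, complete linkage and each library left out.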

Additional observations from a re-analysis of the deposited data

How the results depend on the processing

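The 3 near-identical junctions called by edgeR became 21 with a replicate block and 15 with DESeq2. They became 23 with a minimum of 10 reads, 22 with no minimum and 0 with a minimum of 50. A fit with 1 library left out assumes that the lone library varies like the other group. RLE factors, library totals and the depth behind SRPBM gave 3, 3 and 2, which were all the calls among the 15333 junctions. Over all junctions tested, the calls were 61 of 15333 with the block and 106 of 15333 with DESeq2. They were 66 of 24568 with a minimum of 10 reads, 61 of 40909 with no minimum and 0 of 8721 with 50. The near-identical junctions tested were 437 with the minimum of 10 and 573 with none. The 0 calls on summed loci became 3 with a replicate block and 8 with DESeq2 (41 and 95 of 15247 summed loci and other junctions). They became 4 with a minimum of 10 reads and 4 with no minimum (44 of 24407 and 42 of 40619). They stayed at 0 with RLE factors, library totals, the depth behind SRPBM, a minimum of 50 reads and distances of 3 and 10 nt. The replicate numbers are shared by the groups, but the labels do not say that they pair the libraries, and the difference between replicate 1 and replicate 2 correlated at -0.03 between the groups over 3100 junctions with at least 200 reads. The summed Zfp292 change of -0.09 ranged from -0.26 to 0.070 with 1 library left out, reversing to 0.039 without IL-1β 2 and to 0.070 without control 2.

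The mean difference in main share within groups, 20.4 points, became 16.2 with at least 50 reads a library. It was 47.4 for loci within 3 nt, which is the value given above for 2 to 3 nt. With 1 library left out, only the pair of the other group remains within groups. That pair gave 25.5 and 26.8 points for the controls and 17.7 and 18.7 for IL-1β. Across groups, 22.5 points became 17.1 with at least 50 reads a library, 55.3 within 3 nt and 18.0 within 10 nt. With 1 library left out they became 20.4 to 25.6. The 19 of 119 loci with 1 junction a library, not the same in all, became 8 of 89 with at least 20 reads in every library. With at least 50 reads they became 4 of 55. The 283 loci and 573 junctions became 89 and 179 within 3 nt. Apart from the pairs that remain when a library is left out, the cause of these changes was not tested. With 2 libraries a group no single locus can pass an exact permutation test.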
